A study of Mus musculus with 9 samples.

Results

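Cerebral cortex of E13.5 mouse embryos labelled Sfpq-/- was compared with cortex of embryos labelled Sfpq+/-, gene by gene. The groups were taken from the genotype labels, and 6 of the 9 arrays of the series belong to them, 3 in each. The other 3 arrays are of control cortex, labelled wild type, and share 1 estimate of the spread with the 6. Total RNA of frozen cortical tissue was amplified, labelled and put on Affymetrix Mouse Exon arrays, with 1 array for each sample. All 3 groups share the stage and the tissue. The labels name neither a Cre driver nor the deleted exons, and do not say whether cells that escaped deletion remain. They also do not say whether a sample is 1 embryo or a pool, or whether litters differed. The p-values therefore measure only the spread between these samples, which may be technical. The note on RNA extraction names Sfpq+/- in 2 places and Sfpq-/- in none, and the groups here follow the sample titles and genotype fields.

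SFPQ belongs, with NONO and PSPC1, to the DBHS family of nuclear proteins that bind RNA. It binds nascent transcripts, takes part in transcription and splicing, and is a core protein of paraspeckles. Genes with very long introns are prominent among those that developing neurons use for adhesion, axon guidance and synapses, and RNA polymerase takes long to copy them. In the cortex at this stage, radial glia in the ventricular zone give rise to intermediate progenitors and to the first projection neurons, while Cajal-Retzius cells lie at the surface.

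Levels are given throughout as the mean log2 signal of the probe sets of a gene, so that a difference of 1 is a doubling of the signal. They cannot be set against each other between genes. Array medians lay between 5.648 and 5.697. Precision is limited by the number of arrays: over all genes the standard error of a difference had a median of 0.096. Xist, the RNA that silences an X chromosome in female cells, was high on Sfpq-/- array 1 and on 2 control arrays (11.48 to 11.79) and low on the others (4.90 to 5.87), while the Y-linked Kdm5d went the opposite way. All 3 Sfpq+/- arrays were Xist-low, so the groups are not balanced for sex. Without Sfpq-/- array 1, which leaves only Xist-low arrays in the comparison, 479 genes were higher and 918 lower. In the comparison of all arrays, 36 genes of the X chromosome were higher and 34 lower of 577. On the autosomes 732 were higher and 1171 lower of 16122, and over all genes tested 4.58% were higher and 7.25% lower. Cortical markers were present in both groups: Emx1, a transcription factor of cortical progenitors, averaged 8.83 in Sfpq+/- and 8.66 in Sfpq-/-, and Tbr1, of early cortical neurons, 10.09 and 10.01. Neither difference passed the test (limma adjusted p = 0.233 and 0.64).

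Sfpq itself was examined first. Its 12 probe sets with a control mean above 10 averaged 12.08, 11.87 and 11.93 on the Sfpq+/- arrays and 10.08, 10.31 and 9.99 on the Sfpq-/- arrays. The groups stood well apart, and all 12 probe sets were lower in Sfpq-/-. The change was -1.84 (SE 0.09, limma adjusted p = 9.75e-07), which is 3.57-fold lower, with a 95% confidence interval from -2.04 to -1.63. Over all 23 probe sets the change was -1.27 (SE 0.16, adjusted p = 0.000378). In the control arrays the 12 probe sets read 12.09, 12.07 and 12.12. The Sfpq+/- mean lay 0.13 below them (difference -0.13, 95% interval -0.34 to 0.08, adjusted p = 0.886), so the reference group of this comparison keeps most of the Sfpq signal of the controls. Which probe sets lie in deleted sequence is not known here.

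In Sfpq-/- against Sfpq+/-, 1994 of 16854 genes changed (11.8%) by limma with Benjamini-Hochberg adjustment at 0.05. Of these, 772 were higher (4.58% of all genes tested) and 1222 lower (7.25%). Lower genes also moved further: 184 of them fell by more than 2-fold, against 50 that rose by as much. The median change was 0.46 among the higher genes and -0.55 among the lower ones, while the median over all genes was 0.03. For 1990 of the 1994 genes the 3 Sfpq-/- arrays did not overlap the 3 Sfpq+/- arrays. Over all genes, 13.2% had non-overlapping arrays with Sfpq-/- higher and 13.6% with Sfpq-/- lower. When each of the 6 arrays was left out in turn, 1232 of the 1994 calls were kept in all 6 fits. In Sfpq+/- against control, limma called 0 genes (0%), and 715 had an unadjusted p under 0.05, where 843 would be given by chance. Sfpq-/- against control gave 1008 higher and 1032 lower genes. That comparison shares the Sfpq-/- arrays with the one described here, and their lists are therefore not independent.

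The deepest losses were mostly in very long genes. Among the 12 lower genes with the largest change, 11 span at least 200 kb, and 296 of their 298 probe sets were lower in Sfpq-/-. Tfap2d, a transcription factor of the AP-2 family and the only one of shorter span (70.9 kb), read 8.70, 8.57 and 7.63 in Sfpq+/- and 5.81, 5.51 and 6.12 in Sfpq-/- (change -2.49, SE 0.26, limma adjusted p = 9.67e-05). The Sfpq-/- values lie about the limit below which probe sets were treated as dim (5.64), so the size of that loss may be understated. Unc5d, a receptor for netrin, read 8.70, 8.76 and 8.56 against 6.41, 6.20 and 6.44, a 5.01-fold loss (change -2.32, SE 0.10, adjusted p = 5.51e-07). Dcc, the netrin receptor that draws axons towards the midline, went from 11.12, 10.99 and 11.08 to 8.75, 9.07 and 8.48, with 43 of 43 probe sets lower (change -2.30, SE 0.12, adjusted p = 1.14e-06). Npas3, a transcription factor of the bHLH-PAS family, fell to the same degree, from 9.29, 9.37 and 9.19 to 7.03, 7.05 and 6.85 (change -2.30, SE 0.10). Spread within a group was small beside each of these losses.

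Receptors, signalling enzymes and a glycosyltransferase followed. Grik2, a kainate-type glutamate receptor subunit, fell from 9.72, 9.84 and 9.78 to 7.63, 7.76 and 7.23. Sema5a, a transmembrane semaphorin, fell from 10.16, 10.19 and 10.11 to 7.94, 8.24 and 7.83. Both lost more than 4-fold of their signal (4.73-fold and 4.44-fold). Plcb1, a phospholipase C that acts after G-protein-coupled receptors, read 8.79, 8.75 and 8.71 against 6.81, 6.90 and 6.60 (change -1.98). B3galt1, a galactosyltransferase, read 9.29, 9.29 and 9.17 against 7.38, 7.26 and 7.22 (change -1.97). Aff2, an X-linked gene of the AF4/FMR2 family, read 10.60, 10.56 and 10.49 against 8.46, 8.90 and 8.24, so that the Xist-high Sfpq-/- array 1 lay between the Xist-low ones. Frmd5, a FERM domain protein, fell by 2.04. Dgkb, a diacylglycerol kinase, fell by 2.12, to Sfpq-/- levels of 5.76 to 6.19. Sytl5, a synaptotagmin-like Rab effector, dropped by 2.15, to levels of 5.03 to 6.0. Both end near the dim limit.

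The 12 higher genes with the largest change were all under 100 kb. Olig3, a bHLH factor of dorsal spinal cord, hindbrain and thalamic progenitors, rose from 5.93, 6.67 and 6.60 to 9.66, 9.55 and 8.72 (change 2.91, SE 0.24, limma adjusted p = 1.63e-05), the largest rise measured. Th, tyrosine hydroxylase, which carries out the rate-limiting step of catecholamine synthesis, rose from 7.69, 7.34 and 7.83 to 10.48, 10.29 and 10.58 (change 2.83, SE 0.18, adjusted p = 2.69e-06). Mab21l2, a gene of eye, midbrain and limb development, went from 6.32, 6.43 and 6.43 to 9.13, 8.86 and 9.31, a 6.53-fold rise. For each of these genes, no Sfpq-/- value came near a Sfpq+/- value.

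Elovl7, which elongates very long fatty acids, rose 5.45-fold, from 6.41, 6.94 and 6.73 to 9.31, 8.93 and 9.18. Crabp2, which carries retinoic acid to its nuclear receptor, rose 4.05-fold, from 9.04, 9.36 and 9.09 to 11.47, 11.01 and 11.07. Fezf1, a zinc finger factor of the forebrain, had the widest spread among these genes, with 7.04, 8.94 and 8.13 in Sfpq+/- against 9.80, 9.81 and 10.13 in Sfpq-/- (change 1.88, SE 0.36, limma adjusted p = 0.00467). Dlk1, an imprinted transmembrane protein related to Notch ligands, went from a mean of 9.24 ± 0.36 (SD, n = 3) to 11.11 ± 0.13. Calb1, the calcium buffer calbindin, went from 7.27, 7.53 and 7.40 to 9.41, 9.09 and 9.28. The rest of the 12 were Pdlim3, a PDZ and LIM domain protein of the cytoskeleton (change 1.71), Samd3 (1.68), Them5, an acyl-CoA thioesterase (1.67), and Rgs13, a regulator of G-protein signalling (1.65). Of the probe sets of these 12 genes, 118 of 119 were higher. None of the 24 genes lost its call when any 1 of the 6 arrays was left out. In Sfpq+/- against control their differences were at most 0.77 in size, with no adjusted p under 0.886.

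**Figure D1:**
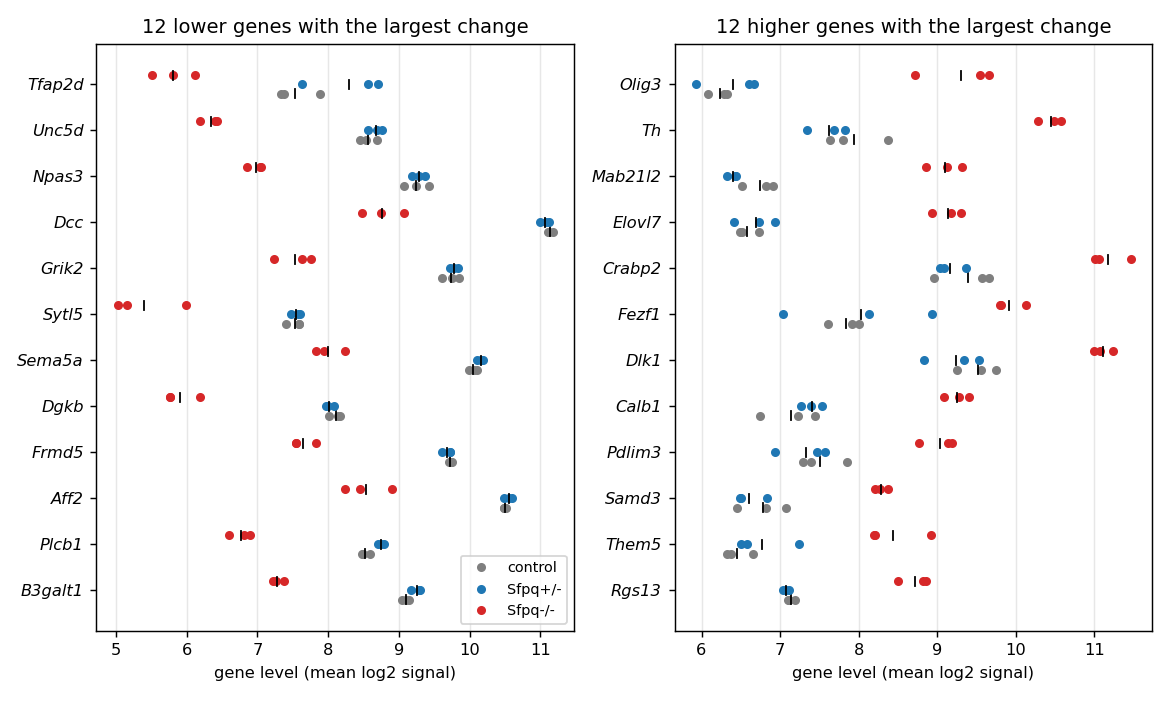
Gene level (mean log2 signal, horizontal axis) on each of the 9 arrays for the 12 lower (left) and 12 higher (right) genes with the largest change between Sfpq-/- and Sfpq+/-. Points are arrays coloured by genotype and black ticks are group means; for Dcc the Sfpq-/- arrays read 8.48 to 9.07 and the Sfpq+/- arrays 10.99 to 11.12, and for Olig3 8.72 to 9.66 against 5.93 to 6.67.

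Gene span, the genomic distance from the first to the last base of a gene, separated the losses from the gains. A span was found for 16707 genes. Lower genes had a median span of 129.8 kb, higher genes 21.6 kb, and all genes 22.1 kb. Of 1205 lower genes with a span, 689 reached 100 kb (57.2%), as did 94 of 768 higher genes (12.2%) and 2254 of all 16707. Among genes that fell by more than 2-fold, 157 of 178 were that long, against 4 of 50 that rose by more than 2-fold.

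The share of lower genes grew at each step of span from 10 kb upwards. Under 10 kb, 222 genes rose and 107 fell of 4651, and from 10 to 50 kb 345 rose and 236 fell of 7531. From 50 to 100 kb, 107 rose and 173 fell of 2271. From 100 to 200 kb, 69 rose and 259 fell of 1336. From 200 to 500 kb, 24 rose and 305 fell of 713 (42.8% lower), and at 500 kb or more 1 rose and 125 fell of 205 (61.0% lower). The median change went from 0.05 in the shortest class to -0.23 at 200 to 500 kb and -0.52 at 500 kb or more, where the quartiles were -0.89 and -0.11. In Sfpq+/- against control the class medians lay between 0.00 and 0.06.

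**Figure D2:**
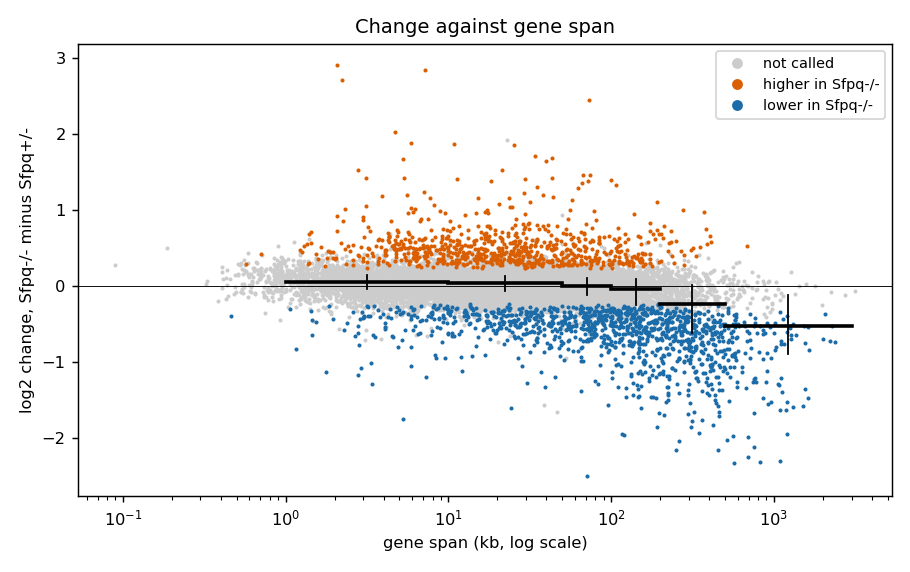
Log2 change of each gene in Sfpq-/- against Sfpq+/- (vertical axis) by gene span in kb (horizontal axis, log scale). Coloured points are genes called higher or lower, horizontal bars are class medians drawn over the span of the class and vertical bars the quartiles; the medians run from 0.05 under 10 kb to -0.52 at 500 kb or more.

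The same shift was seen on every Sfpq-/- array. The median level of genes of at least 500 kb minus that of genes under 100 kb was -0.254, -0.351 and -0.268 on the Sfpq+/- arrays, and -1.06, -1.09 and -0.939 on the Sfpq-/- arrays. On the control arrays it was -0.249, -0.337 and -0.223. Thus the Sfpq+/- and control arrays overlapped and the Sfpq-/- arrays lay apart from both.

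Among long genes, losses were called more often where the array signal was brighter. The genes of at least 200 kb were divided into 4 groups of near equal size by their mean signal on the control arrays, which does not rank expression between genes. In the dimmest group 35 of 230 were lower (15.2%), in the next 105 of 229 (45.9%), then 135 of 229 (59.0%), and in the brightest 155 of 230 (67.4%). Median changes were -0.03, -0.27, -0.49 and -0.58 in the same order. Genes under 100 kb, divided in the same way, had 0.775%, 3.68%, 5.26% and 4.57% lower, so few losses were called in the dimmest group of short genes as well. The part of signal near background in these differences was not tested.

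**Figure D3:**
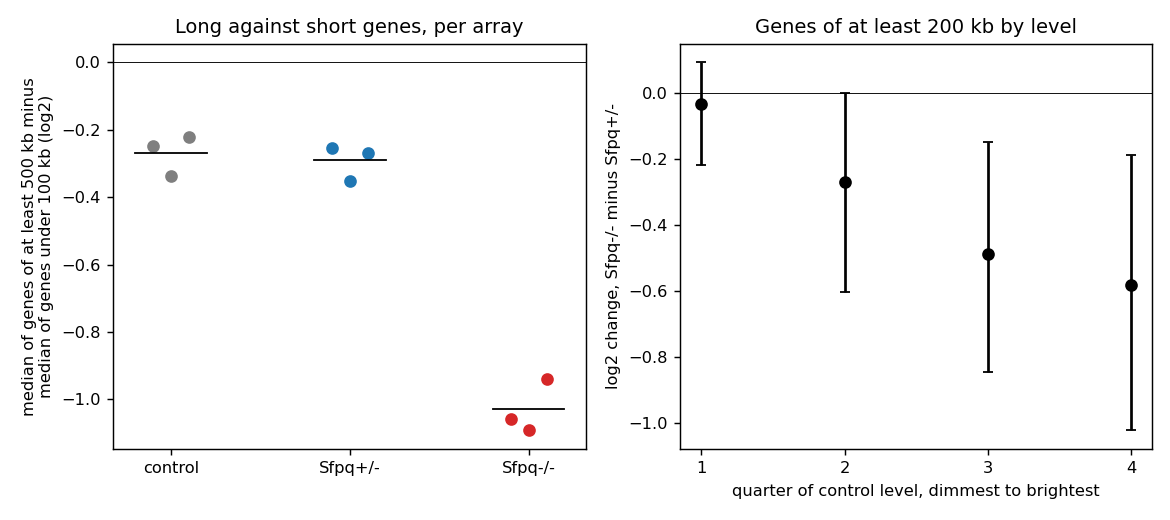
Left: the median log2 level of genes of at least 500 kb minus that of genes under 100 kb, for each array by genotype, with group means as bars; the Sfpq-/- arrays lie between -1.09 and -0.939 and the others between -0.351 and -0.223. Right: median log2 change in Sfpq-/- against Sfpq+/- (points, with quartiles as bars) of genes of at least 200 kb, in 4 groups of rising control signal; the medians run from -0.03 in the dimmest to -0.58 in the brightest group.

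Not every long gene fell. The 1 gene of at least 500 kb that rose was Zfhx3, a large zinc finger homeobox factor. It read 8.21, 8.17 and 8.46 in Sfpq+/- and 8.77, 8.77 and 8.90 in Sfpq-/- (change 0.53, SE 0.12, limma adjusted p = 0.0165). The 5 largest rises among genes of at least 200 kb were of other kinds. Spon1, a secreted matrix protein of the floor plate that acts on axons, doubled its signal, from 7.02, 6.88 and 7.16 to 8.07, 7.90 and 8.10. St18, a zinc finger factor of the Myt1 family, read 9.16, 9.21 and 9.15 against 10.25, 10.19 and 9.97 (change 0.97). The others were Epb41l4a, a FERM domain protein (0.79), Zfp407, a zinc finger protein (0.75), and Pappa, a protease that cleaves IGF-binding proteins (0.72).

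Nor were all strong losses in long genes. The 5 deepest among genes under 50 kb included Sfpq itself. The gene that the array annotation calls Tcf3 fell from 10.27, 10.08 and 10.25 to 8.51, 8.74 and 8.57 (change -1.60, SE 0.08, limma adjusted p = 1.09e-06). RefSeq also lists Tcf3 as an older name of Tcf7l1, a transcription factor of the Wnt pathway. Tcf7l1 is not otherwise among the genes measured, so which of the 2 genes this is cannot be told from the symbol. Its span of 24.4 kb was taken by the symbol Tcf3, so its place among the short genes is not settled either. Dct, dopachrome tautomerase, an enzyme of melanin synthesis also made in the telencephalon, fell from 8.68, 8.88 and 8.74 to 7.34, 7.68 and 7.29 (change -1.33). Cer1, a secreted antagonist of BMP and Nodal, fell by 1.29. Dlx1as, an RNA antisense to Dlx1, fell 2.29-fold on 3 probe sets, while Dlx1 differed by 0.05 (adjusted p = 0.908). With gene levels taken as the median over probe sets Dlx1as differed by -0.43 (adjusted p = 0.144), and without Sfpq+/- array 1 its adjusted p was 0.0588. Whether probe sets of the 2 overlapping genes share signal is not known here.

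Gene groups by role are described next as counts of members that passed the test over all genes, beside the 7.25% of all genes that were lower and the 4.58% that were higher. The lists were drawn up with earlier results on these arrays known, and the lists of very long genes were chosen for their span, so their direction is not independent evidence.

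**Figure D4:**
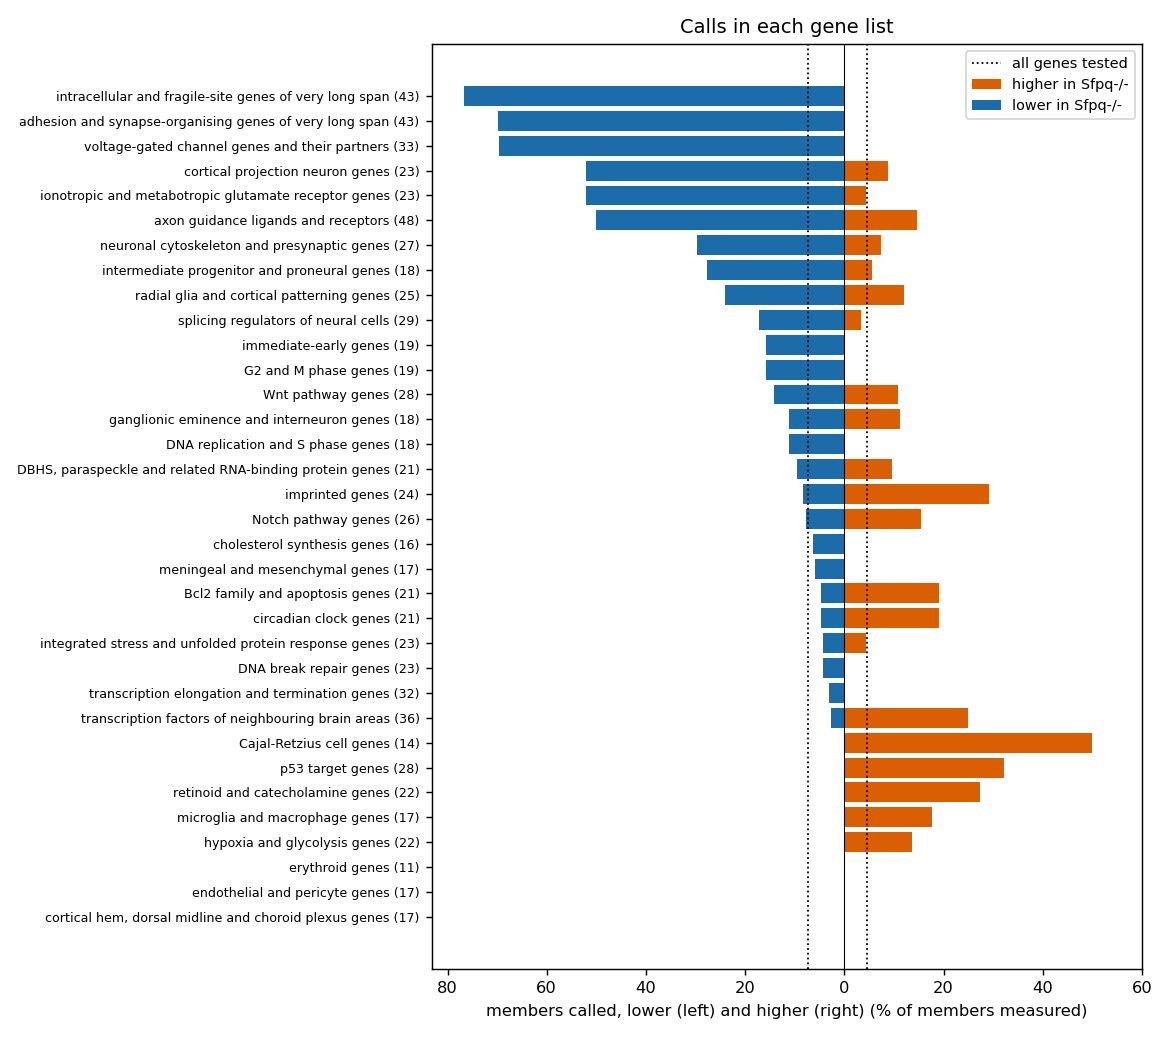
Share of the measured members of each gene list (number of members in brackets) that was lower (bars to the left) or higher (bars to the right) in Sfpq-/- than in Sfpq+/-, in percent. Dotted lines mark the shares over all genes tested, 7.25% lower and 4.58% higher; the 3 longest bars to the left are the 2 lists of very long genes and the channel genes, and the longest to the right is the Cajal-Retzius list.

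Cell adhesion and synapse-organising genes of very long span fell widely. In Sfpq-/-, 30 of 43 measured members were lower and 0 higher (median change -0.61). Cdh4, a cadherin of the neural retina and brain, fell 3.15-fold, from 9.49, 9.34 and 9.23 to 7.60, 7.72 and 7.77 (limma adjusted p = 1.03e-06). Ctnna2, the neuronal alpha-catenin that ties cadherins to actin, fell from 9.80, 9.60 and 9.61 to 7.97, 8.14 and 8.04. Ctnnd2, delta-catenin, fell by 1.47, and Cadm2, a synaptic adhesion molecule of the immunoglobulin family, by 1.53. Each of the 4 had fully separate groups.

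Of the very long genes for intracellular proteins or at fragile sites, 33 of 43 fell and 0 rose (median change -0.61). Besides Npas3, Dgkb and Frmd5, the members with the smallest p included Dab1, the adaptor that carries the Reelin signal inside migrating neurons. It read 10.66, 10.43 and 10.43 in Sfpq+/- and 9.06, 9.19 and 9.08 in Sfpq-/-, a 2.63-fold loss. The ligand Reln differed by -0.14 (adjusted p = 0.311), although it spans 460.3 kb, and its arrays read 10.65, 10.68 and 10.60 against 10.49, 10.61 and 10.39.

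Axon guidance ligands and receptors moved in both directions and split by span. Of 48 measured, 24 fell and 7 rose (median change -0.31). Among the 32 of at least 100 kb, 22 fell and the median was -0.66, while among the 16 shorter ones 2 fell and the median was -0.01. Ephb2, an ephrin receptor kinase, fell from 10.30, 10.21 and 10.32 to 8.73, 8.88 and 8.83, and Sema5b, the paralogue of Sema5a, from 9.48, 9.43 and 9.47 to 7.99, 8.11 and 7.89. Both fell by 1.46. The 2 shorter members that fell were the ephrin Efnb2 (-0.49) and the netrin receptor Unc5a (-0.29). The shorter members that rose were Robo3 (1.00), which governs midline crossing of commissural axons, the ephrin Efnb3 (0.62), the netrin receptor Unc5b (0.45), the ephrin receptor Ephb3 (0.39) and the plexin Plxna1 (0.28). These 7 shorter members were chosen after their values were seen.

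Glutamate receptor genes had the same division. Of 23 measured, 12 fell and 1 rose, and all 12 that fell were among the 17 of at least 100 kb. Gria2, the AMPA receptor subunit that limits calcium entry, read 9.46, 9.23 and 9.07 against 7.81, 7.94 and 7.99 (change -1.34, SE 0.11, limma adjusted p = 1.91e-05). Gria4, another AMPA subunit, fell by 1.15, and the kainate subunit Grik3 fell by 1.41. The 1 member that rose was Grm2, a metabotropic receptor of 11.6 kb (change 0.59), named here after its value was seen.

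Voltage-gated channel genes and their partners gave 23 lower and 0 higher of 33 (median change -0.52). All 33 span at least 100 kb, so role and span cannot be told apart in this list. Nkain2, which interacts with the sodium pump, had the deepest named loss, from 9.02, 9.07 and 8.99 to 7.04, 7.02 and 7.18 (change -1.94, SE 0.08, limma adjusted p = 5.51e-07). Its relative Nkain3 fell by 1.34. Kcnd3, a pore subunit of the A-type potassium current, fell by 1.32, and Kcnip1, a calcium-binding partner of the same channels, by 1.37. All Sfpq-/- arrays lay below all Sfpq+/- arrays for these genes.

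Neuronal cytoskeleton and presynaptic genes, most of them short, changed less as a list. Of 27 measured, 8 fell and 2 rose, with a median change of -0.08. Among the 6 of at least 100 kb, 5 fell and the median was -0.54, while among the 21 shorter ones 3 fell and the median was -0.05. Syn2, a synapsin of synaptic vesicles, fell from 9.12, 9.10 and 8.87 to 8.01, 8.12 and 8.18, and Syt1, the calcium sensor of vesicle release, from 10.10, 9.96 and 10.07 to 9.26, 9.10 and 9.31. Dclk1, a microtubule-binding kinase of migrating neurons, fell by 0.73, Syn1 by 0.59, and Cplx1, a complexin, by 0.44. The microtubule protein gene Mapt and the active zone genes Bsn and Pclo fell by 0.32 to 0.35. In Sfpq+/- they lay 0.18, 0.06 and 0.27 above control, differences that did not pass. In Sfpq-/- against control they differed by -0.15, -0.26 and -0.08 and did not pass either (limma adjusted p = 0.37, 0.0909 and 0.703). Stmn4, a stathmin that binds tubulin, and Nefl, the light neurofilament, rose by 0.59 and 0.55. In tissue of mixed cells, fewer cells of a type and less RNA per cell cannot be told apart, which holds for all the cell-type genes that follow. The count of lower members in this list was 4 without Sfpq-/- array 1 and 5 without Sfpq+/- array 1 or Sfpq+/- array 3. The calls of Mapt and Bsn were lost in 5 of the 6 fits without 1 array, those of Pclo and Nefl in 4, and that of Cplx1 without Sfpq-/- array 1.

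Genes of cortical projection neurons were often lower. Of 23 measured, 12 fell and 2 rose (median change -0.38). Among the 12 of at least 100 kb, 9 fell and the median was -0.56, while among the 11 shorter ones 3 fell and the median was -0.25. The mean over the list was 9.80 to 9.95 on the Sfpq+/- arrays and 9.49 to 9.57 on the Sfpq-/- arrays. Myt1l, a zinc finger factor that keeps neuronal identity, fell from 9.0, 8.66 and 8.64 to 7.43, 7.52 and 7.46 (change -1.30, limma adjusted p = 8.58e-06). Nfia, a nuclear factor I protein of late progenitors and deep-layer neurons, fell from 11.97, 11.84 and 11.82 to 10.77, 10.95 and 10.74. Both are long genes (395.6 and 540.8 kb). Fezf2, which specifies corticospinal neurons and spans 7.8 kb, fell from 11.59, 11.61 and 11.50 to 10.95, 10.92 and 10.90. The bHLH factors Neurod6 (-0.64) and Bhlhe22 (-0.40), other short members that were named after their values were seen, also fell. The vesicular glutamate transporter Slc17a7 rose by 0.45. St18, described above, is the other member that rose. The list therefore held losses in short genes too, while Tbr1 did not pass.

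Among genes of intermediate progenitors and proneural factors, 5 of 18 fell and 1 rose, with a median change of 0.02. The 6 that changed all span under 50 kb. Neurog2, the proneural factor that drives glutamatergic neurogenesis, fell from 11.28, 11.64 and 11.36 to 10.28, 10.69 and 10.07 (change -1.08, SE 0.14, limma adjusted p = 0.000478). Neurod4 fell from 9.79, 9.93 and 9.82 to 8.81, 8.90 and 8.49. Eomes, the defining factor of intermediate progenitors, fell by less, from 10.51, 10.49 and 10.43 to 10.09, 10.10 and 10.14, with 20 of 20 probe sets lower. Sstr2, a somatostatin receptor, fell by 0.46 and Insm1, a zinc finger factor that promotes basal progenitors, by 0.39. Sstr2 lay 0.28 higher in Sfpq+/- than in control, which did not pass, and differed by -0.18 in Sfpq-/- against control (limma adjusted p = 0.23). Taken as the median over probe sets, the Insm1 change was -0.24 (limma adjusted p = 0.155). Dll3, a divergent Notch ligand, was the member that rose, from 9.23, 9.18 and 8.95 to 9.85, 9.78 and 9.65.

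Radial glia and cortical patterning genes changed by small amounts, 6 of 25 lower and 3 higher. Pou3f2 and Pou3f3, the POU factors of late progenitors and upper-layer neurons, fell by 0.52 and 0.42. Lhx2, which specifies cortex, fell by 0.34, Cdh2, the N-cadherin of the ventricular surface, by 0.51, and the patterning genes Nr2f1 and Tfap2c by 0.36 and 0.39. Nr2f1 lay 0.25 higher in Sfpq+/- than in control, which did not pass, and differed by -0.11 in Sfpq-/- against control (limma adjusted p = 0.485). Dmrta1 and Dmrt3, which are highest in medial cortex, rose by 0.49 and 0.32, and Sp8, a factor of medial and rostral patterning, by 0.48. The number of higher members of this list was 0 without Sfpq+/- array 1, Sfpq+/- array 3 or Sfpq-/- array 1, and 1 without Sfpq+/- array 2 or Sfpq-/- array 2, and without Sfpq+/- array 1 the lower members numbered 3. The Nr2f1 call was lost in 3 of the 6 fits, that of Tfap2c in 4 and that of Cdh2 without Sfpq+/- array 1.

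In the list for neighbouring brain areas, mostly of transcription factors, 36 genes were measured. Of these, 9 rose in Sfpq-/- cortex, 1, Tfap2d, fell and 26 did not pass (median change 0.21). The mean over the list was 7.73 to 7.83 on the Sfpq+/- arrays and 8.11 to 8.21 on the Sfpq-/- arrays. Beyond Olig3, Mab21l2 and Fezf1, the risers included Mab21l1, the paralogue of Mab21l2, which went from 8.69, 8.44 and 8.46 to 10.09, 9.73 and 10.33 (change 1.52, SE 0.14, limma adjusted p = 4.12e-05). Gbx2, a homeobox factor of thalamus and anterior hindbrain, read 7.58, 7.84 and 7.90 against 8.52, 8.58 and 8.53. In Sfpq+/- against control Gbx2 differed by -0.40, which did not pass. In Sfpq-/- against control it differed by 0.38 and did not pass either (limma adjusted p = 0.0983). Tcf7l2, a Wnt effector strong in thalamus and pretectum, read 8.58, 8.49 and 8.63 against 9.40, 9.42 and 9.10. Otx2 (0.51), Tfap2a (0.42) and Irx3 (0.32) rose by less. In Sfpq-/- against control Otx2 and Irx3 differed by 0.33 and 0.20 and did not pass (limma adjusted p = 0.104 and 0.184). The Irx3 call was lost without either of Sfpq+/- arrays 1 and 2 or of Sfpq-/- arrays 1 and 2, and its change was 0.08 (adjusted p = 0.528) with a stricter filter on dim probe sets; the Otx2 call was lost without Sfpq+/- array 1 or 2, and the Tfap2a call without the filter (adjusted p = 0.0908). The share of dissected tissue from neighbouring areas in these rises was not tested. Genes of the ganglionic eminence, which borders the cortex below, had list means of 8.37 to 8.50 in Sfpq+/- and 8.33 to 8.51 in Sfpq-/-. Nkx2-1, the medial marker of the eminence, read 5.87, 6.91 and 7.48 in Sfpq+/- and 7.29, 6.51 and 6.74 in Sfpq-/-. Its change was 0.09 (SE 0.44, limma adjusted p = 0.933), so a difference within that wide spread could not be seen.

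Genes of Cajal-Retzius cells were higher in part. In Sfpq-/-, 7 of 14 measured members rose and 0 fell, with list means of 9.11 to 9.21 against 8.78 to 8.86. Barhl2, a homeobox factor, rose from 9.19, 9.17 and 9.25 to 10.24, 10.22 and 10.04 (change 0.96, SE 0.08, limma adjusted p = 1.02e-05), and Lhx5, a LIM homeobox factor, from 7.32, 7.25 and 7.5 to 8.47, 8.22 and 8.27. Calb2, the calcium buffer calretinin, rose from 8.95, 8.63 and 8.84 to 9.76, 9.53 and 9.55, and Ebf2 rose by 0.68. Cxcr4, the receptor that holds these cells under the meninges, rose by 0.47, Lhx1 by 0.46 and Nhlh2 by 0.38. The Lhx1 call was lost without Sfpq+/- array 1 or 2 or Sfpq-/- array 1, and the Nhlh2 call without Sfpq-/- array 1; Nhlh2 differed by 0.14 (adjusted p = 0.576) with gene levels taken as the median over probe sets. The most specific markers, Reln, given above, and Trp73, did not pass. Reln is itself a long gene (460.3 kb), with 77 of its 81 probe sets lower in Sfpq-/-, so its level cannot be read apart from its span. Trp73 read 8.30, 8.42 and 8.38 in Sfpq+/- and 8.30, 8.40 and 8.28 in Sfpq-/- (change -0.04, adjusted p = 0.782). Several members of this list, such as Barhl2, Lhx1, Lhx5 and Calb2, are also made in diencephalon and other areas.

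**Figure D5:**
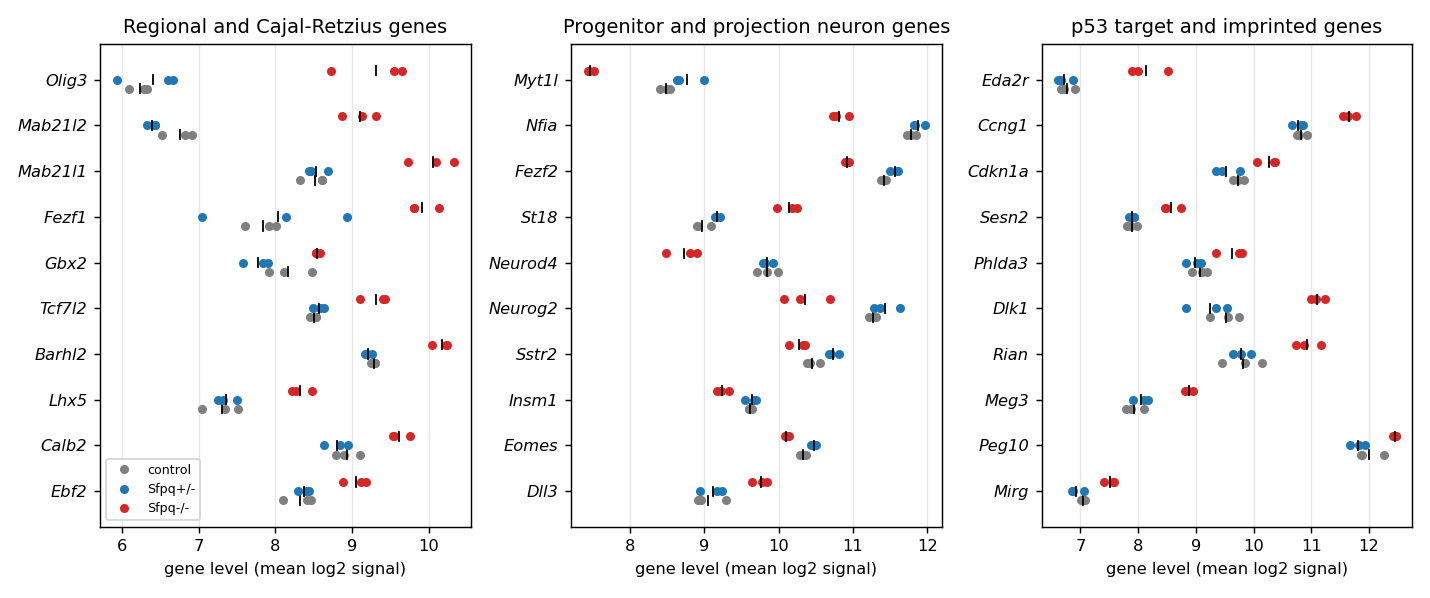
Gene level (mean log2 signal, horizontal axis) on each of the 9 arrays for regional and Cajal-Retzius genes (left), progenitor and projection neuron genes (middle), and p53 target and imprinted genes (right), with arrays as points coloured by genotype and group means as ticks. Every gene shown passed the test in Sfpq-/- against Sfpq+/-; for Neurog2 the Sfpq-/- arrays read 10.07 to 10.69 and the Sfpq+/- arrays 11.28 to 11.64, and for Barhl2 10.04 to 10.24 against 9.17 to 9.25.

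Interneuron genes showed no common direction, with 2 of 18 higher and 2 lower. Erbb4, the neuregulin receptor of migrating interneurons, which spans 1076.7 kb, fell from 8.48, 8.60 and 8.34 to 7.19, 7.47 and 6.87. Sst, the neuropeptide somatostatin, a gene of 1.8 kb, fell from 9.63, 9.92 and 9.23 to 8.52, 8.15 and 8.73 (change -1.12, limma adjusted p = 0.00152). Ebf1, a factor of striatal neurons, rose by 0.55 in spite of a span of 390.0 kb, and Gad1, the GABA-synthesising enzyme, rose by 0.80 (adjusted p = 0.03). The Gad1 call was lost in 5 of the 6 fits without 1 array, and the Ebf1 call without Sfpq+/- array 2. Lhx6, of medial eminence interneurons, did not pass (change -0.33, adjusted p = 0.32).

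Retinoid and catecholamine genes rose in 6 of 22 cases and fell in 0. After Th and Crabp2 came Ddc, the decarboxylase that acts after tyrosine hydroxylase, which rose from 6.98, 7.14 and 7.16 to 7.71, 7.63 and 7.88 (change 0.65). Stra6, the receptor that takes up retinol, rose from 9.19, 9.32 and 9.33 to 9.79, 9.61 and 9.76. Cyp26b1, which breaks down retinoic acid, and Rxrg, a retinoid X receptor, rose by 0.52 and 0.55. Without Sfpq+/- array 1, Sfpq-/- array 1 or Sfpq-/- array 3, 4 members were higher, and the calls of Cyp26b1 and Rxrg were each lost in 4 of the 6 fits without 1 array.

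Targets of p53, the factor that responds to DNA damage and other stress, rose in 9 of 28 cases and fell in 0 (median change 0.15). Ccng1, cyclin G1, rose from 10.66, 10.85 and 10.82 to 11.78, 11.55 and 11.64 (change 0.88, SE 0.09, limma adjusted p = 6.99e-05). Eda2r, a receptor for ectodysplasin A2, rose from 6.62, 6.88 and 6.67 to 8.52, 7.89 and 8.0, and Cdkn1a, the cell cycle inhibitor p21, from 9.36, 9.76 and 9.46 to 10.37, 10.05 and 10.36. Sesn2, a stress-induced sestrin, and Phlda3, an inhibitor of Akt, rose by 0.66 and 0.65. Smaller rises were measured for Bbc3 (0.41), a BH3-only killer protein, Tnfrsf10b (0.39), a TRAIL receptor, Ptpn14 (0.34), a phosphatase, and Sesn1 (0.27). Mdm2, the ubiquitin ligase that p53 induces against itself, did not pass (change -0.10, adjusted p = 0.711). Without Sfpq+/- array 1 or without Sfpq-/- array 1, 5 members were higher. The Sesn1 call was lost in each of the 6 fits without 1 array, that of Ptpn14 in 4, and those of Bbc3 and Tnfrsf10b in 3. With gene levels taken as the median over probe sets, the calls of Bbc3, Ptpn14 and Tnfrsf10b were lost (limma adjusted p = 0.391, 0.178 and 0.0793).

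Genes of the Bcl2 family and of apoptosis gave 4 higher and 1 lower of 21. The killer proteins Bid and Bak1 rose by 0.42 and 0.33 and the BH3-only Bcl2l11 by 0.37, beside Bbc3. With gene levels taken as the median over probe sets, each of these 4 calls was lost. The limma adjusted p was then 0.106 for Bid, 0.0546 for Bak1, 0.184 for Bcl2l11 and 0.391 for Bbc3. The survival gene Bcl2, of 176.1 kb, fell from 9.79, 9.86 and 9.86 to 9.43, 9.63 and 9.39. Without Sfpq+/- array 1 or Sfpq-/- array 1 1 member was higher, and without Sfpq+/- array 2, Sfpq+/- array 3 or Sfpq-/- array 1 none was lower. Of the integrated stress and unfolded protein response genes, Sesn2 rose and Aldh1l2, a mitochondrial folate enzyme, fell by 0.60, out of 23. Of 23 DNA break repair genes, the 551.0 kb gene Rad51b fell by 0.73 and 0 rose, and 3 fell without Sfpq-/- array 2.

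Imprinted genes rose in 7 of 24 cases and fell in 2. Of the 5 listed members in the Dlk1 to Mirg cluster 4 rose: Dlk1, given above, Meg3, from 8.16, 7.90 and 8.10 to 8.96, 8.81 and 8.87, Rian, from 9.64, 9.78 and 9.95 to 11.17, 10.87 and 10.73, and Mirg, from 6.87, 6.86 and 7.06 to 7.59, 7.41 and 7.56. Dlk1 is expressed from the paternal and the 3 noncoding RNAs from the maternal copy. Peg10, a domesticated retroelement, rose by 0.63, Peg3 by 0.43 and Mest by 0.34. Snrpn and Grb10, of 467.7 and 106.9 kb, both fell by 0.52. Without the filter on dim probe sets Snrpn differed by -0.09 (adjusted p = 0.767), and its call was also lost without Sfpq+/- array 2 or Sfpq-/- array 1, that of Grb10 without Sfpq+/- array 1, that of Peg3 without Sfpq+/- array 2, and that of Mest without any array but Sfpq-/- array 3. Without Sfpq-/- array 2, 3 listed genes were lower. The cluster's Rtl1, a retroelement-derived gene, did not pass (change 0.30, limma adjusted p = 0.111). The arrays give no allele, so the parental origin of the signal was not measured.

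Of 21 circadian clock genes measured, 4 short ones rose and 1 long one fell. The 4 were Bhlhe41, a repressor of the clock (change 0.51), Dbp, an output factor of the PAR bZIP family (0.49), Nr1d1, the nuclear receptor REV-ERB alpha (0.43), and Per1, a core repressor (0.37). Per1 read 8.45, 8.47 and 8.37 in Sfpq+/- and 8.83, 8.76 and 8.80 in Sfpq-/-, and all 36 of its probe sets were higher (limma adjusted p = 0.00588). Rorb, a nuclear receptor of 180.6 kb also used in cortical layer identity, fell from 8.37, 8.08 and 8.06 to 6.73, 6.67 and 6.72. Nr1d2 did not pass (change 0.27, adjusted p = 0.16). With a stricter filter on dim probe sets Bhlhe41 differed by 0.31 (adjusted p = 0.127). The time of day of each dissection is not in the labels.

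The E-box CACGTG, the letters that the clock activator CLOCK with its partner binds, was searched for in the 250 bases before each gene's start, as RefSeq gives them for build GRCm38.p6. The motif reads the same on both strands. It was found for 6.02% of 32851 promoters, for 5 of 18 clock genes with a promoter, and for 2 of the 4 clock genes that rose. The 60 bases around it in those 2 genes are shown so that the match can be read, with the E-box in capitals. Bhlhe41 is on the minus strand at chr6:145865541-145865600 and Per1 on the plus strand at chr11:69098756-69098815, both stretches lying before the start.
Bhlhe41: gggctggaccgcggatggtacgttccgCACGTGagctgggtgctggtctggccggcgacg
Per1: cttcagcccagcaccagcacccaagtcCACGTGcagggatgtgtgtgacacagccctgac
The E-box begins 153 bases before the start of Bhlhe41 and 166 bases before that of Per1. These are matches of letters, and binding was not measured.

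Genes of the Notch and Wnt pathways changed singly. In the Notch list, 4 of 26 rose and 2 fell. The ligand Jag1 rose from 9.14, 9.10 and 9.12 to 10.05, 10.03 and 9.70 (change 0.80, limma adjusted p = 0.000164), with Dll3, Dlk1 and the target Hey2 (0.39). The coactivator Maml2, of 413.0 kb, fell from 9.17, 9.07 and 9.17 to 7.75, 8.02 and 7.78, and Maml3, of 418.0 kb, by 0.40. In the Wnt list, 3 of 28 rose and 4 fell. Its receptors diverged: Fzd8, of 3.3 kb, fell from 10.18, 10.26 and 10.06 to 9.18, 9.51 and 8.76, while Fzd7, of 4.8 kb, rose from 9.21, 9.47 and 9.28 to 10.04, 10.14 and 9.74. The target Sp5 rose by 0.41, and the feedback inhibitor Nkd1, the secreted protein Dkk3 and the co-receptor Lrp5 fell by 0.53, 0.46 and 0.30. Without Sfpq-/- array 3, 5 Wnt genes were higher, and without Sfpq-/- array 2, 5 Notch genes were lower. The Hey2 call was lost in 4 of the 6 fits without 1 array and those of Sp5 and Lrp5 in 2, and with gene levels taken as the median over probe sets Maml3 differed by -0.17 (adjusted p = 0.423).

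Partners and relatives of SFPQ were little changed as a group, with 2 of 21 higher and 2 lower, the latter being Sfpq and Zc3h6, a zinc finger protein (-0.39), whose call was kept without Sfpq-/- array 2 but lost without any other array. Its DBHS relative Pspc1 rose from 9.87, 9.71 and 9.70 to 10.50, 10.61 and 10.23 (change 0.69, limma adjusted p = 0.00648). Pspc1 also lay 0.40 higher in Sfpq+/- than in control, a difference that did not pass. Nono, the other DBHS gene, did not pass (change 0.10, adjusted p = 0.525). Rbm12, an RNA-binding protein, rose by 0.66. Among 29 splicing regulators of neural cells, 5 fell and 1 rose. Srrm4, which drives inclusion of neuronal microexons, fell from 9.74, 9.53 and 9.45 to 8.01, 7.86 and 8.06, and Khdrbs2, of the STAR family, from 8.95, 9.23 and 9.13 to 7.52, 7.73 and 7.55. Rbfox1, Celf4 and Elavl2 fell by 0.46 to 0.52, and Mbnl2 rose by 0.26. The Mbnl2 call was kept in only 1 of the 6 fits without 1 array, that without Sfpq-/- array 3, and with gene levels taken as the median over probe sets Elavl2 differed by -0.08 (adjusted p = 0.683) while Rbfox1 fell by 1.09. Of 32 genes for transcription elongation and termination, Aff3, a 454.8 kb relative of Aff2, fell 2.29-fold and 0 rose.

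Metabolic genes gave few calls. Of 22 hypoxia and glycolysis genes, 3 rose: Slc2a3, the neuronal glucose transporter, from 9.36, 9.46 and 9.30 to 10.99, 10.75 and 10.74 (change 1.45, limma adjusted p = 3.53e-06), Egln3, an oxygen-sensing hydroxylase (0.57), and Aldoa, an aldolase (0.30). Slc2a1, the glucose transporter of brain vessels, did not pass (change 0.13, adjusted p = 0.305). Of 16 cholesterol synthesis genes, Insig1, the sterol-sensing inhibitor of the pathway, fell by 0.45, and 3 fell without Sfpq-/- array 2. The Aldoa call was lost without Sfpq+/- array 1 or 3 or Sfpq-/- array 1.

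Division genes leaned lower, to an extent that depended on 1 array. The mean over 19 G2 and M phase genes was 10.49 to 10.57 on the Sfpq+/- arrays and 10.25, 10.52 and 10.01 on Sfpq-/- arrays 1 to 3, so that array 2 overlapped the reference group. In the comparison of all arrays 3 fell, the mitotic kinases Aurka (-0.37), Plk1 (-0.33) and Aurkb (-0.32), and without Sfpq-/- array 2 12 fell. Without Sfpq+/- array 1, Sfpq+/- array 3 or Sfpq-/- array 1, only 1 fell. Of 18 replication genes, the polymerase subunit Pola1, of 327.6 kb, and the replication factor Cdc45 fell by 0.80 and 0.34. Without Sfpq-/- array 2, 4 fell, but 1 without any other array. Of 19 immediate-early genes, Ccn1, Jun and Arc fell by 0.40, 0.28 and 0.26, but 0 fell without Sfpq+/- array 1 or Sfpq+/- array 2, and 1 without Sfpq+/- array 3 or Sfpq-/- array 1.

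Of 17 microglia and macrophage genes 3 rose and 0 fell, Fcrls by 0.43, C1qb by 0.37 and Cd68 by 0.37, and for 9 of the 17 the Sfpq-/- arrays lay above all Sfpq+/- arrays, beside 13.2% of all genes. The list mean was 7.73 to 7.89 in Sfpq+/- and 8.03 to 8.09 in Sfpq-/-, without overlap, while Csf1r, the receptor that these cells need, differed by 0.01 (adjusted p = 0.956). Without Sfpq-/- array 1, 1 of the list was higher, and without Sfpq+/- array 1, 2 were. The Cd68 call was lost in 4 of the 6 fits without 1 array and that of C1qb in 2. With gene levels taken as the median over probe sets, the calls of Fcrls and Cd68 were lost (limma adjusted p = 0.244 and 0.261). Endothelial and pericyte genes gave 0 higher and 0 lower of 17, as did the 17 genes of cortical hem, dorsal midline and choroid plexus and the 11 erythroid genes. Of 17 meningeal genes, the mesenchymal factor Prrx1 fell by 0.37, and 0 fell without Sfpq+/- array 2 or 3 or without Sfpq-/- array 1 or 3. Ttr, the choroid plexus transthyretin, read 12.46, 12.73 and 12.60 against 12.65, 12.69 and 12.51. The part of microglial RNA in the changes described was not tested.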

How the data were processed

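The 9 arrays, 3 per genotype, carried 1256831 probe sets each. Per the submitters' processing notes, the authors used Affymetrix Expression Console 1.2.0.20 to make the deposited log2 signals, 1 per probe set. The sources used here do not say how background was corrected or arrays were normalized. The platform annotation gave the gene symbols: 318760 probe sets (25.4%) had 1, 6684 had several and 931387 had none there. Symbols were updated through RefSeq where unique. Gene levels are the mean of a gene's probe sets with 1 symbol whose mean over all arrays exceeded the median of probe set means (5.64), for genes with at least 3, giving 16854 genes from 248590 probe sets.

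All 9 arrays entered 1 model with 3 group means, without covariates in limma 3.58.1 under R 4.3.3 (lmFit, then eBayes), and p-values were adjusted over all genes by Benjamini-Hochberg. Spans are from the RefSeq GRCm38.p6 gene table, by symbol. Genes named are Sfpq, the 12 higher and 12 lower with the largest change among called genes whose arrays do not overlap, the 5 lower under 50 kb and 5 higher of at least 200 kb likewise, and in each of 35 lists the 4 with the smallest adjusted p and all called members if at most 10. Clone-like names were left out. Others named for context were chosen after their values were seen. The comparison, lists and rules were chosen with earlier results of these data known. Tested on simulated data of 16854 genes, this comparison found 48.75% of 80 genes given a log2 change of 0.5. It found 95% of 80 genes at a change of 1 and 100% of 40 at a change of 2, with 4 false calls. Far fewer genes were changed there than the 1994 called here, so these shares need not hold for the real comparison. Alternatives covered filters, summary, scaling, spread, sex, the replicate number and leaving out arrays.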

Additional observations from a re-analysis of the deposited data

How the results depend on the processing

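The direction of the counts and of the difference by span was kept under every alternative run. Gene-by-gene array weights gave 3640 called genes, 1735 higher and 1905 lower; they were added after seeing the data. The planned weights estimated over all genes were not run, since the estimate did not converge. Leaving out 1 array at a time gave 1397 to 2267 called genes, 469 to 904 higher and 918 to 1525 lower, with 469 higher without Sfpq+/- array 1 and 479 without Sfpq-/- array 1. The median change of genes of at least 100 kb minus that of shorter genes was -0.143, and -0.187 to -0.122 when 1 array was left out. Whether the replicate numbers pair the arrays cannot be told. Same-numbered Sfpq+/- and Sfpq-/- arrays correlated in their deviations at -0.055, 0.040 and 0.303, and unlike-numbered ones at -0.223 to 0.216. For control and Sfpq+/- arrays the same-numbered values were 0.248, 0.050 and 0.307, and the unlike-numbered ones -0.341 to 0.112. For control and Sfpq-/- arrays they were 0.276, 0.006 and 0.574, and -0.533 to 0.363. With the replicate block 963 genes were higher and 1404 lower. Of 161 named genes called, 114 kept the call in all 6 fits without 1 array. Named calls were also lost under other settings: 34 with gene levels taken as the median over probe sets, 20 without the filter on dim probe sets, 19 with only the 6 arrays, 19 with the Xist class as a covariate, 8 with arrays centred, 7 with the stricter filter, and 1 each with quantile normalization and the replicate block. With 3 arrays per group, changes of 0.5 were often missed in the simulated data. Losses to levels near the dim limit may be understated.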
